A study of Rattus norvegicus with 3 samples.

Results

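The study's granulosa cell arrays were read here for 9 genes that switch off mitogen-activated protein (MAP) kinase signalling. They are 5 dual specificity phosphatase genes, Dusp1, Dusp4, Dusp5, Dusp6 and Dusp10, and 4 genes of the Sprouty and Spred family, Spry1, Spry2, Spry4 and Spred1. A probe set, the group of short array probes that reads 1 transcript, was taken when the platform annotation mapped it to a member's symbol and to no other gene. This gave 11 probe sets for 8 of the 9 genes, among 31099 probe sets and 14218 genes in all. Dusp6 had 3 probe sets, Dusp1 had 2, and Dusp4, Dusp5, Dusp10, Spry1, Spry2 and Spry4 had 1 each. Spred1 matched none and was not analysed here.

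MAP kinases carry signals from growth factor receptors, protein kinase A and protein kinase C to the nucleus. Dual specificity phosphatases remove phosphate from both the threonine and the tyrosine of an active MAP kinase. Sprouty and Spred proteins act higher up, between the receptor and the RAF kinases. Both families are themselves transcribed in response to the pathway they restrain, and so are known as feedback inhibitors. In the preovulatory follicle the ovulatory surge of luteinizing hormone (LH) activates extracellular signal-regulated kinase (ERK) in granulosa cells, partly through epidermal growth factor (EGF)-like peptides, and this ERK activity is needed for ovulation.

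Granulosa cells came from female Sprague-Dawley rats aged 24 to 25 days, and were collected by puncture of follicles 48 h after an injection of PMSG (pregnant mare's serum gonadotropin), which grows follicles to the preovulatory stage. In all 3 groups the cells were cultured and carried an adenovirus at 50 pfu per cell, removed after 2 h; no group went without virus. The control group (Ad-GFP) carried the virus for green fluorescent protein and had no stimulus. The stimulated group (Ad-GFP +FSK/PMA) carried the same virus and was given 10 uM forskolin, which activates adenylyl cyclase, and 20 nM phorbol 12-myristate 13-acetate, which activates protein kinase C. The third group (Ad-NFIL3 +FSK/PMA) had the same stimulus and a virus for NFIL3, a bZIP protein that mostly represses transcription. The stimulus, which stands in for the ovulatory hormone, began 24 h after infection and lasted 6 h. Each group had 1 Affymetrix rat array, hybridised with RNA pooled from 3 experiments, so no test was possible and each difference compares pools. The labels name neither the promoter that drives the viral genes nor the share of cells infected.

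Values are MAS5 signals, an intensity on a linear scale. Signals under 126, the median of all signals, were set to that floor before log2 differences were taken, and a gene was measured in a comparison when 1 or both of its arrays lay above it. This floor was passed by 48.1% to 51.8% of probe sets per array. Nfil3 read 563 without stimulus, 1321 with it and 5880 on the array labelled Ad-NFIL3, through 1 probe set whose place relative to the viral insert is not known here. Of 10 granulosa markers on the array 9 were above the floor in the control and 10 on each stimulated array. Their summed signal was 115355 without stimulus, 82860 with it and 51454 with NFIL3 added. With the stimulus Cyp19a1 went from 120 to 2489 and Inha from 26480 to 29900, while the other granulosa markers were lower. With NFIL3 added Inhbb, Amh, Amhr2 and Nr5a2 were higher than with the stimulus alone, and the others were lower. Markers of other cells summed to between 825 and 1248 for theca and stroma (2 or 3 of 7 above the floor), between 430 and 967 for oocytes (1 of 5), between 2054 and 3127 for leukocytes (3 or 4 of 7), between 385 and 514 for endothelium (1 or 2 of 4), and between 15708 and 19930 for red cells (2 of 2). The theca gene Cyp17a1, the leukocyte gene Ptprc and the endothelial gene Pecam1 were below the floor on all arrays. Others were above it: Cd14, a leukocyte marker, read 606, 1487 and 1562 on the control, stimulated and NFIL3 arrays, Lyz2 read 1110, 769 and 969, Dcn of stroma read 201, 196 and 480, Col3a1 read 394, 331 and 341, and Kdr of endothelium read 190, 180 and 138. The summed theca and stroma, leukocyte and endothelial signals were highest on the NFIL3 array, and the summed oocyte and red cell signals were lowest there. Single markers did not all follow these sums: Dcn was highest on that array, while Col3a1 and Lyz2 were below their control signals and Kdr was at its lowest. As for array quality, 18 probe sets of spiked hybridisation controls were 1.35 times (FSK/PMA) and 1.43 times (NFIL3) as bright as in the control, and the 3′ to 5′ ratio of Gapdh ran from 1.14 to 1.28. The part of these shifts in the results was not tested, and in pooled RNA fewer cells of a type and less RNA per cell cannot be told apart.

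The first comparison, stimulated against unstimulated Ad-GFP cells, asked how the feedback genes respond to the stand-in for the ovulatory signal. All 5 members measured, Dusp1, Dusp5, Dusp6, Spry2 and Spry4, were at least 2-fold higher with FSK/PMA, from 3.00-fold for Spry2 to 16.1-fold for Dusp5. Of all 9395 measured genes 7.43% passed the same limit. Among genes above the floor on both arrays, as the brightest probe sets of these 5 members were, the share was 7.14%. The members, and the gene lists read further below, were chosen with earlier results of these data known. Their contrast with all genes is thus a description and no independent support. The median log2 difference of the 5 members was 1.99, against -0.10 over all measured genes. The other 3 members on the array, Dusp4, Dusp10 and Spry1, stayed below the floor on all 3 arrays and have no fold.

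**Figure D1:**
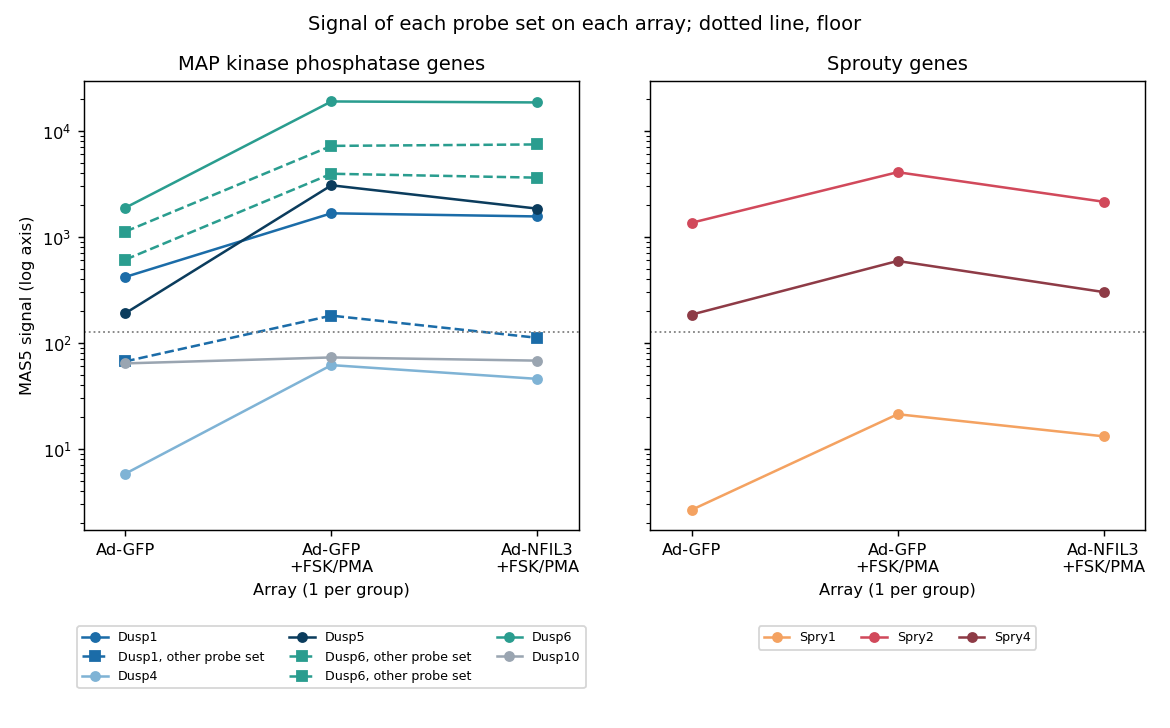
MAS5 signal (log axis) of the 11 probe sets on the 3 arrays, 1 array per group; circles with solid lines are the brightest probe set of a gene, squares with dashed lines the others, and the dotted line is the floor of 126. Dusp1, Dusp5, Dusp6, Spry2 and Spry4 are higher on the FSK/PMA array than on the control array, and Dusp5, Spry2 and Spry4 are lower again on the NFIL3 array, while the brightest probe set of Dusp6 goes from 18892 to 18494.

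Dusp5 encodes a nuclear phosphatase that acts on ERK. It read 191 unstimulated, 3061 stimulated and 1845 stimulated with NFIL3. The control was thus close to the floor and the stimulated array far above it, a difference of 16.1-fold, which ranked 24 of 9395 measured genes. With a floor at the 75th percentile of all signals, above its control signal, the log2 difference was 2.48 in place of 4.0. A robust SD of the log2 difference was taken from the disagreement of probe sets in 1895 genes that had 2 measured probe sets. It was 0.36 for this comparison, and 0.41 where the dimmer probe set had a mean signal under 500. This SD leaves out differences between cultures and any shift shared by a whole array.

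Dusp6 encodes the cytoplasmic phosphatase that is the best known ERK-selective member of the family. Its brightest probe set gave 1882 unstimulated, 18892 stimulated and 18494 stimulated with NFIL3, 10.0-fold higher with the stimulus. The second gave 1122, 7203 and 7431, and was 6.42-fold higher. The third gave 610, 3933 and 3614, and was 6.44-fold higher. All 3 probe sets of Dusp6 placed the control array lowest and the other arrays close together, and Dusp6 ranked 43 of 9395 by its brightest probe set.

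Dusp1 encodes a nuclear phosphatase that acts on p38, c-Jun N-terminal kinase (JNK) and ERK, and is a classic immediate early gene. Its brighter probe set gave 419, 1668 and 1557 in the same order of arrays, 3.98-fold higher with the stimulus. Its dimmer probe set gave 67.0, 181 and 112, was above the floor only with FSK/PMA, and was at least 1.44-fold higher. The dimmer probe set of Dusp1 was measured only through its high array, so it could only read higher here, and its bound lies below the difference of the brighter one.

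The Sprouty genes differed less than Dusp5 and Dusp6. Spry2 encodes a membrane-associated inhibitor of receptor tyrosine kinase signalling, and read 1358 unstimulated, 4069 stimulated and 2143 stimulated with NFIL3. Its log2 difference with the stimulus was 1.58, at rank 289 of 9395. Spry4, which encodes a related inhibitor of RAS and RAF activation, gave 185, 592 and 302. Its log2 difference was 1.68, at rank 250, and its fold was 3.20. Spry2 and Spry4 thus lay closer to each other than the SD of 0.36 between probe sets. With the floor raised to the 75th percentile of all signals Spry4 was no longer 2-fold higher, at 0.11.

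Of the members below the floor, Dusp4, which encodes a nuclear phosphatase of ERK and JNK, read 5.86 unstimulated, 61.8 stimulated and 45.8 with NFIL3 added. Spry1 had signals of 2.67, 21.3 and 13.2. Both were dimmest on the control array, but MAS5 signals this low are noisy and no fold is given. Dusp10, which encodes a phosphatase that prefers JNK and p38, had 64.1, 73.0 and 68.1, all well under the floor.

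Since these genes were higher together, the RefSeq promoter table (assembly GRCr8), which held windows of 300 bases from 250 before to 50 after a start for 8 of the 9 members, was searched on both strands for 5 motifs. The motifs were the cAMP response element TGACGTCA, its part TGACG, the AP-1 element TGANTCA, the element TTANGTAA bound by NFIL3 and its PAR relatives, and the CArG box of serum response factor; TGACG lies inside TGACGTCA. Across all 33469 promoters 1.83% held TGACGTCA, 21.2% TGACG, 7.33% TGANTCA, 2.24% TTANGTAA and 1.64% a CArG box. Of the measured members, Dusp1, Dusp5 and Spry2 held a match, and their 250 bases before the start are shown 5′ to 3′ on the gene's strand with the matches in capitals. Dusp1 is chr10:17184603-17184852 (+), Dusp5 is chr1:262543524-262543773 (+) and Spry2 is chr15:89111927-89112176 (-).
Dusp1: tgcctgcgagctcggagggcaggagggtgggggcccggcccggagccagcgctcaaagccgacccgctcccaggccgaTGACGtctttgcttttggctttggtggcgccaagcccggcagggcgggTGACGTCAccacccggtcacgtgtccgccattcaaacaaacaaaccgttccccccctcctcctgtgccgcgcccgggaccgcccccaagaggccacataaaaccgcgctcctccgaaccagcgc
Dusp5: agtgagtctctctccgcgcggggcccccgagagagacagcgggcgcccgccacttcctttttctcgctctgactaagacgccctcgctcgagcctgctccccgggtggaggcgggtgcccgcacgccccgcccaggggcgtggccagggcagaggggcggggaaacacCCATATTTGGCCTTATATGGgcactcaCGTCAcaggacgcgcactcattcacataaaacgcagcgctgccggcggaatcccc
Spry2: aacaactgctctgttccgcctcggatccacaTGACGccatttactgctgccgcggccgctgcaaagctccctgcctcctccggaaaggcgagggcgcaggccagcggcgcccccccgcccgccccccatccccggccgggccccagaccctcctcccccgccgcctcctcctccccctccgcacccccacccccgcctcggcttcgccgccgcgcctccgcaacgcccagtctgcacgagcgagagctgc
Dusp1 held TGACGTCA at -124 to -117 from the start and a separate TGACG at -172 to -168. Dusp5 held a CArG box at -82 to -73, directly followed by another at -72 to -63, and TGACG read on the opposite strand at -55 to -51. Spry2 held TGACG at -219 to -215. The windows of Dusp6, Dusp10, Spry1, Spry4 and Spred1, and a further window of Spry2, had none of the 5 motifs, so TTANGTAA was in no window searched. The starts that the table used for Dusp6, Dusp10, Spry1 and the further window of Spry2 are not the outer start of the gene in the RefSeq gene table, and which start these cells use is not known here. A match is a run of letters and shows no binding, and none of these windows was measured here.

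The second comparison, of the NFIL3 virus against the GFP virus in stimulated cells, asked whether overexpressed NFIL3 goes with other levels of the feedback genes. Spry4, Spry2 and Dusp5 were lower on the NFIL3 array, by 1.96-fold, 1.90-fold and 1.66-fold, whereas Dusp6 and the brighter probe set of Dusp1 lay within 1.09-fold of the GFP array. At the 2-fold limit 0 of 5 measured members were called lower and 0 higher, against 0.958% and 1.34% of all 9397 measured genes. With arrays scaled to their medians Spry4 and Spry2 passed it, and with quantile normalisation or cyclic loess Spry4 did; median scaling also turned the split of all genes past 2-fold from 126 higher and 90 lower to 48 and 190. At 1.5-fold, a limit chosen after the values were seen, 3 of 5 members were lower, against 4.25% of all measured genes. The median of the 5 members was -0.73 on the log2 scale, against 0.03 over all measured genes. This member median was -0.97 with median scaling and -0.11 with a floor at the 75th percentile of all signals. With a floor at the 25th percentile 7 members were measured, and it was -0.42.

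**Figure D2:**
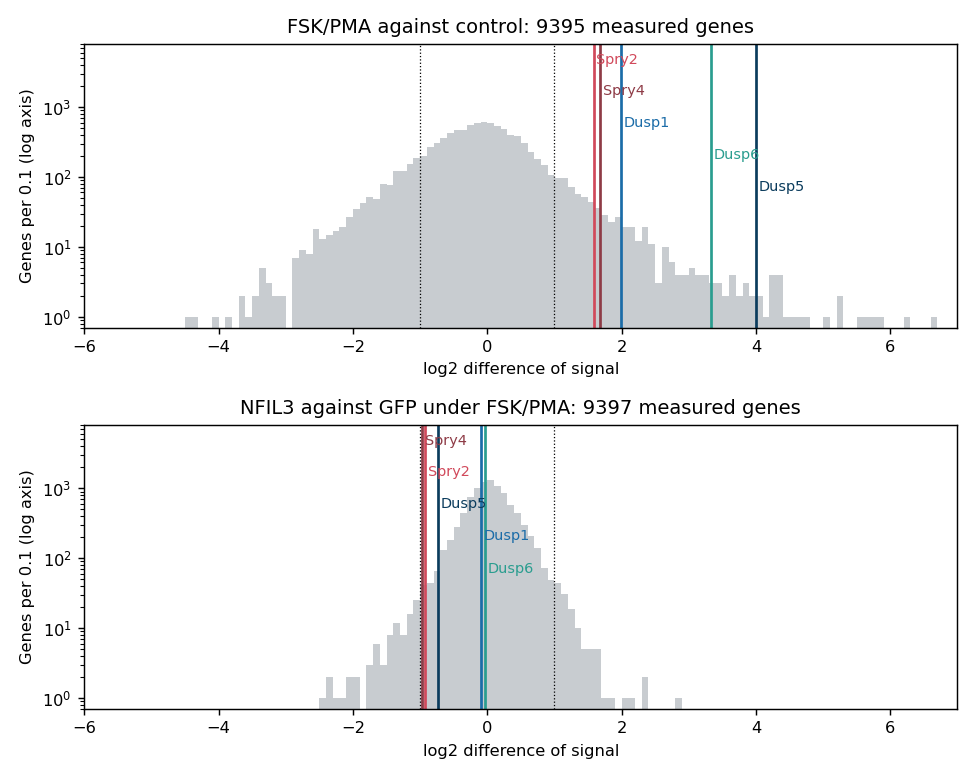
Number of genes (log axis) by log2 difference in steps of 0.1, for FSK/PMA against control (9395 measured genes, top) and NFIL3 against GFP under FSK/PMA (9397 genes, bottom); coloured lines are the 5 measured members and dotted lines mark 2-fold. In the top panel all 5 lie to the right of the upper 2-fold line, and in the bottom panel Spry4, Spry2 and Dusp5 lie between -0.97 and -0.73 while Dusp1 and Dusp6 lie near 0.

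Spry4 (592 with GFP, 302 with NFIL3) differed by -0.97 and stood at rank 101 from the lowest of 9397 genes. Spry2 (4069 and 2143) differed by -0.93, at rank 118. Dusp5 (3061 and 1845) differed by -0.73, at rank 218. The SD between probe sets in this comparison was 0.24 over 1846 genes. It was 0.28 where the dimmer probe set had a mean signal under 500, as that of Spry4 was, and 0.10 where it was over 2000, as those of Spry2 and Dusp5 were. Each of these differences exceeded its SD, and each rests on 1 probe set. The SD again leaves out differences between cultures, and it leaves out any shift shared by a whole array. Median scaling alone moved Dusp5 from -0.73 to -0.97 and Dusp6 from -0.03 to -0.27.

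Dusp6 lay closer to 0. The log2 differences of its 3 probe sets were -0.03, 0.05 and -0.12, in order of brightness, and so lay on both sides of 0. The first and second lay within the SD of 0.10 for signals over 2000, and the third was just past it. Dusp1 differed by -0.10 in its brighter probe set, at rank 3036 from the lowest. Its dimmer probe set went from 181 to a value below the floor, and since only its GFP array was above the floor it could only read lower, so nothing is drawn from it. Whether the difference with NFIL3 itself differs between the Sprouty genes and Dusp6 could not be tested with 1 array per group.

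The FSK/PMA array entered both comparisons, so a high or low value on it moves a gene's differences in opposite directions. Set directly against the control, which that array does not enter, the NFIL3 array was 9.83-fold higher for Dusp6, 9.67-fold for Dusp5 and 3.72-fold for Dusp1. It was 1.63-fold higher for Spry4 and 1.58-fold for Spry2. At the 2-fold limit this kept the 3 phosphatase genes and neither Sprouty gene, against 6.52% of all 9647 measured genes; this comparison shares its arrays with the others.

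The genes whose pattern was most like each member's were found by the distance between pairs of log2 differences (FSK/PMA against control, NFIL3 against GFP), over 6282 genes above the floor on all 3 arrays. This is a likeness over 3 arrays only. Nearest to Spry4 was Nr4a2, an orphan nuclear receptor gene, with differences of 1.65 and -0.88, and next was Spry2. Nearest to Spry2 were Eola2 (1.56 and -0.92) and Tnc, which encodes the matrix protein tenascin C (1.56 and -0.97). Nearest to Dusp5 were Pvr (3.85 and -0.61) and Ptprn (3.83 and -0.46). Nearest to Dusp6 were Dclk1 (3.33 and 0.15) and Hmga1 (3.20 and 0.11), and nearest to Dusp1 were Rad18 (2.04 and -0.07) and Riok3 (2.07 and -0.14).

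The genes around the feedback loop were read from 6 lists, beside the median of all measured genes (-0.10 with FSK/PMA and 0.03 with NFIL3). The share of all genes at least 2-fold lower with FSK/PMA was 11.4%. Of the ligands and receptors of the EGF and fibroblast growth factor (FGF) families, 9 of 17 on the array were measured with FSK/PMA, with a median of 0.02, which was -0.34 with a floor at the 25th percentile of all signals and 0.42 with one at the 75th. Areg and Ereg, which encode the EGF-like peptides amphiregulin and epiregulin, were 12.3-fold and at least 10.8-fold higher. Fgfr2, an FGF receptor gene, was 6.74-fold lower and Hbegf, a further EGF-like ligand gene, was at least 3.76-fold lower. In this comparison Ereg was above the floor only with FSK/PMA and Hbegf only in the control, so the direction of each was fixed. A dimmer probe set of Fgfr2 went from 201 to a value below the floor. It too could only read lower, so nothing is drawn from it. The remaining probe sets of Fgfr2 were below the floor on all arrays. With NFIL3 2 of 8 were lower, Ereg by 4.19-fold and Areg by 2.82-fold, and 0 were higher.

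The kinase cascades were read next. In the RAS to ERK list 2 of 18 measured genes were higher with FSK/PMA, Map2k1, the ERK kinase gene MEK1, by 2.73-fold and Mras by 2.31-fold. Gab1, a receptor docking protein gene, was 3.94-fold lower, and the median was -0.12. In the JNK and p38 list 1 of 11 was higher, Map2k3, a p38 kinase gene, by 3.02-fold. Lower in that list were 3 genes, Mapkapk3, a p38 substrate kinase gene, by 4.33-fold, Map2k6, another p38 kinase gene, by at least 3.87-fold, and Map3k1 by 2.57-fold, and the median was -0.62, or -0.11 with a floor at the 75th percentile of all signals. Map2k6 was above the floor only in the control, so it could only read lower. With NFIL3 0 of 18 and 0 of 10 genes of these lists passed 2-fold. Since only 1.34% of all measured genes were higher and 0.958% lower at that limit, nothing is drawn from these counts.

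Other inhibitors behaved unevenly. Of 10 measured relatives of the phosphatase members, 1 was higher with FSK/PMA, Dusp14, by 5.49-fold (211 to 1157), and 1 was lower, Dusp18, by 2.01-fold. Dimmer probe sets of Dusp18 differed by -0.47 and -0.33. The median of these relatives was -0.37. With NFIL3 1 of 10 was higher, Dusp7, an ERK phosphatase gene, by 2.42-fold, and 0 were lower. Of the list of Sprouty relatives and other receptor and RAS inhibitors, 12 genes were measured with FSK/PMA. Only 1 of these was a Sprouty or Spred relative, and it did not pass 2-fold. Errfi1, which encodes an inhibitor of the EGF receptor, was 10.5-fold higher with FSK/PMA. Rasa3, a RAS GTPase activating protein gene, was 2.47-fold higher, and Lrig1, which promotes receptor turnover, was 3.26-fold lower. Errfi1 was the 1 gene of 14 past 2-fold with NFIL3, with signals of 2835 and 1271, 2.23-fold lower.

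The ERK substrate and early output list stood highest after the members. With FSK/PMA 10 of its 19 measured genes passed 2-fold upward and 0 downward, with a median of 1.02. Of all measured genes 7.43% were that much higher. This median was 0.65 with a floor at the 25th percentile and 0.66 with probe sets averaged. Some of the 10, Fosl1 among them, were below the floor in the control, so they could only read higher, and they enter the median too. The early response genes Ier2 and Ier3 were 5.99-fold and 4.32-fold higher, and the AP-1 genes Junb and Fosl1 were 3.36-fold and at least 2.99-fold higher. With NFIL3 the median was -0.10. Egr2, an early response transcription factor gene, was 2.51-fold higher, and Rps6ka5, a kinase gene downstream of ERK and p38, was 2.55-fold lower, with a second probe set at -1.29 on the log2 scale.

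**Figure D3:**
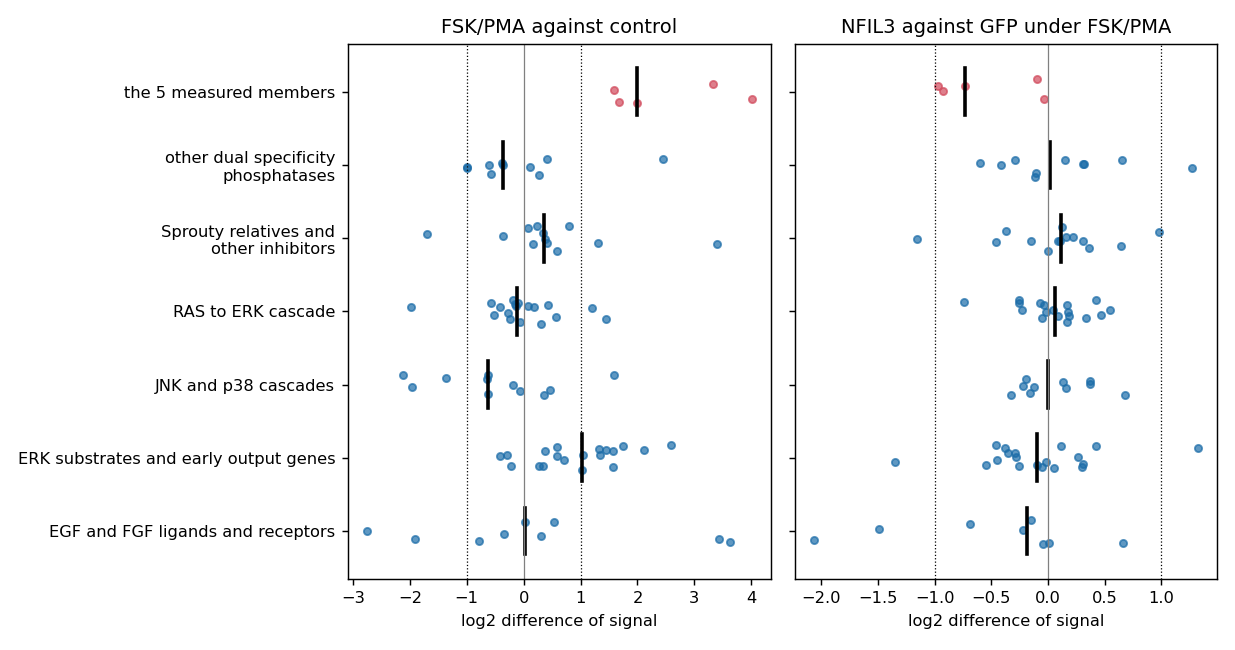
log2 difference of each measured gene (points) and the median (black bar) for the 5 measured members and the 6 pathway lists, for FSK/PMA against control (left) and NFIL3 against GFP under FSK/PMA (right); dotted lines mark 2-fold. With FSK/PMA the members have a median of 1.99 and the ERK output genes 1.02, and the other lists have medians between -0.62 and 0.35; other floors move the ERK output median to 0.65, the JNK and p38 median to -0.11 and the ligand median to between -0.34 and 0.42.

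**Figure D4:**
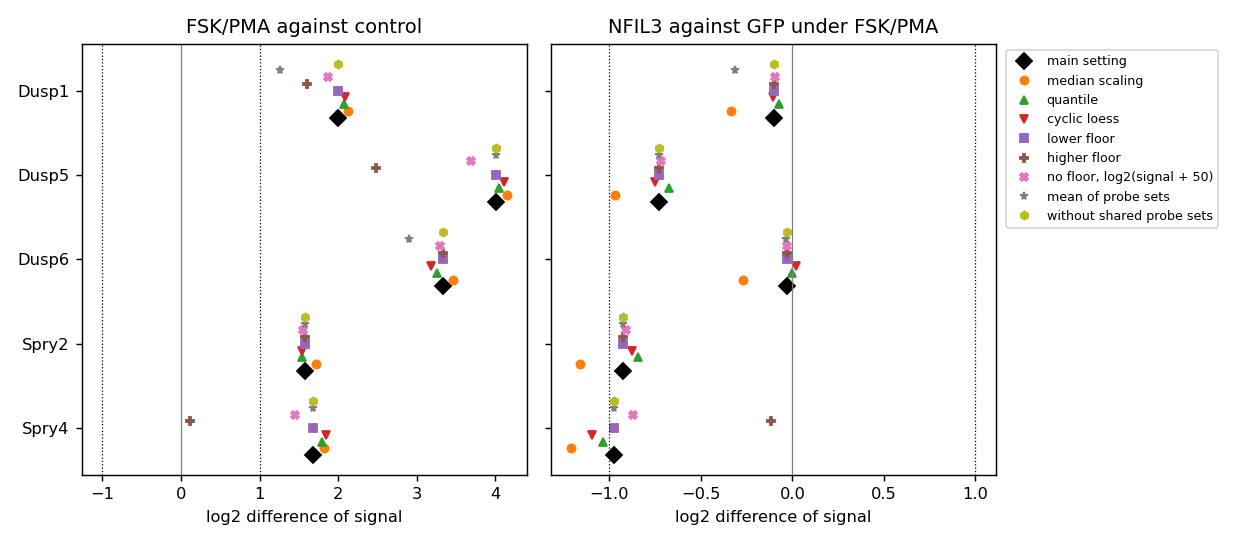
log2 difference of the 5 measured members under the main setting (black) and 8 others, for FSK/PMA against control (left) and NFIL3 against GFP under FSK/PMA (right); dotted lines mark 2-fold. With FSK/PMA every point lies above 0, and Spry4 with the higher floor is the 1 point inside 2-fold. With NFIL3 Dusp1, Dusp5, Spry2 and Spry4 lie below 0 under each setting, and Dusp6 lies on both sides of 0.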

How the data were processed

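The authors deposited 1 table of MAS5 signals, an intensity per probe set, for 3 arrays. Per the submitters' processing notes MAS5 made them (no version stated). Each deposited column had a 2% trimmed mean of 500. Arrays were brought to 1 trimmed mean, signals were floored at the median of all signals, and log2 was taken. Each gene was represented by its brightest probe set over the arrays. A fold is a bound where 1 array was below the floor. Of 31099 probe sets, 20832 had 1 gene symbol, 436 had several and 9831 had none; symbols were updated through Entrez IDs (20764 matched in GRCr8). Of 121 list entries 107 were on the array.

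The text names the members, Nfil3, up to 4 genes of each list with the largest difference past 2-fold and any past it the other way, the 2 genes nearest each member (signal of at least 4 times the floor), and cell type markers. The members and lists were chosen with earlier results of these data known. Proteins were not used here. The code was tested on simulated data. Alternatives were 3 scalings, 3 floors and 2 choices of probe set. Python 3.11.15 with numpy 2.4.6 and pandas 2.3.3, and limma 3.58.1 for cyclic loess, were used.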

Additional observations from a re-analysis of the deposited data

How the results depend on the processing

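With FSK/PMA the count of members at least 2-fold higher was 5 under 7 of the 8 alternatives. It was 4 with a floor at the 75th percentile, where Spry4 lay at 0.11 on the log2 scale because its control signal was raised to the floor. With a floor at the 25th percentile Dusp4 and Dusp10 were measured too, and the count was 5 of 7. The median of those 7 was 1.68 on the log2 scale, in place of 1.99 in the main setting. With NFIL3 the count at least 2-fold lower, 0 in the main setting, was 2 with median scaling (Spry4 and Spry2, at -1.21 and -1.16), 1 with quantile normalisation and 1 with cyclic loess (Spry4 in both), and 3 at 1.5-fold. That count at 1.5-fold was 3 under 7 of the 8 alternatives and 2 with the higher floor, where Spry4 lay at -0.11. Median scaling moved the median of all genes from 0.03 to -0.20 with NFIL3 and from -0.10 to 0.03 with FSK/PMA. With NFIL3 the share of higher among differing genes was 58.3% in the main setting, 20.2% with median scaling, 44.8% with quantile normalisation and 43.8% with cyclic loess; with FSK/PMA it was 39.4% and 50.1% with median scaling, and 51.1% with the higher floor. The count of all genes past 2-fold with FSK/PMA went from 1770 to 822 with the higher floor, and that with NFIL3 from 216 to 781 with a floor at the 25th percentile and to 84 with the higher floor; fewer or more genes are measured by construction. Over all settings Dusp5 lay between 2.48 and 4.14 with FSK/PMA and between -0.97 and -0.68 with NFIL3, Spry2 between -1.16 and -0.84, Spry4 between -1.21 and -0.11, and Dusp6 between -0.27 and 0.02. Dusp1 lay between -0.34 and -0.07 with NFIL3 over all settings, and was 1.26 with FSK/PMA when its probe sets were averaged. Of 80 values of single members under alternatives, 74 moved by less than the SD between probe sets over all genes, 0.36 with FSK/PMA and 0.24 with NFIL3. Of those past 2-fold 0 changed sign. The SD over all genes is wide for bright probe sets. With NFIL3 median scaling moved Spry2 from -0.93 to -1.16 and Dusp6 from -0.03 to -0.27. These moves count as within 0.24 but exceed the SD of 0.10 for signals over 2000. Some of the 80 values could not move. The lower floor lay under every signal of the brightest probe sets of these members. Of the 2 choices of probe set, 1 removed no probe set of a member. Averaging changes nothing for Dusp5, Spry2 and Spry4, which have 1 probe set each. Of 95 list medians 89 moved by less than the SD over all genes. The other 6 were the medians with FSK/PMA of the ERK output list (0.65 with the lower floor, 0.66 with averaged probe sets), of the JNK and p38 list (-0.11 with the higher floor) and of the ligand and receptor list (-0.34 with the lower and 0.42 with the higher floor), and that of the ligand list with NFIL3 (-0.69 with the higher floor, against -0.19). No paired analysis was possible because each group had 1 array. No replicate could be left out, and precision is limited by the number of arrays.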

Other observations

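Some genes near the feedback loop fell outside the rule for named genes and were chosen after their values were seen. Egfr, the EGF receptor gene, read 2228 unstimulated, 3241 stimulated and 2011 with NFIL3 added, 1.45-fold higher with the stimulus and 1.61-fold lower with NFIL3. Dusp14 was 1.52-fold lower with NFIL3, at 1157 and 762. Rasa3 went the other way, from 684 to 1352, 1.98-fold higher with NFIL3. Dusp15 was 1.57-fold higher with NFIL3 (412 and 647), and Dusp22 had signals of 1108, 554 and 687, just inside 2-fold lower with FSK/PMA.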
